A study of Sus scrofa with 8 samples.

Results

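The chondrogenic cells of pig somites and myotome were taken here as the barcodes that held at least 5 unique molecular identifiers (UMIs, which count captured RNA molecules) of COL2A1, at least 1 UMI of MATN4 or ACAN, and no UMI of the muscle gene MYF5 or the glial gene SOX10. Of 90688 barcodes in 8 libraries, 82394 passed the quality limits, and 3259 of these, or 3.96%, met the rule. The members were therefore chosen by the measured values of COL2A1, MATN4, ACAN, MYF5 and SOX10, and the levels of these 5 genes are given as a description without a test. Among the members, 1889 held MATN4 without ACAN, 85 held ACAN without MATN4, and 1285 held both. The median member held 8 UMIs of COL2A1, and 336 members held 20 or more.

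The libraries came from 2 kinds of embryo, pure Tibetan pigs (ZZ) and the cross of Duroc with Tibetan pigs (DZ), which shared the breed of the mother and differed in that of the father. Somites were taken at embryonic days 16, 18 and 21 (E16, E18 and E21) and the myotome at E28, with 1 library for each stage and breed, and each library pooled the cells of 5 embryos of 1 sow. E28 therefore differed from E21 in both age and tissue, which cannot be told apart, and the E16 libraries were counted with another Cell Ranger version than the rest. The 8 libraries held 6297 to 12173 barcodes past the limits, with medians of 3496 to 6338 UMIs per barcode.

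Cartilage of the axial skeleton forms from the sclerotome, the ventral part of the somite, under hedgehog signals from notochord and floor plate. Sclerotome cells that express PAX1 and PAX9 turn on SOX9, which acts with SOX5 and SOX6 to activate the cartilage matrix genes. The matrix is a network of type II collagen fibrils, decorated with collagens IX and XI, that traps aggrecan and its chondroitin sulfate chains, while matrilins link fibrils and proteoglycans. Chondrocytes later multiply in columns, respond to Indian hedgehog and parathyroid hormone-related signals, and enlarge before bone replaces them.

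The 3 rule genes of the matrix lie at chr5:78350131-78380893 (COL2A1, type II collagen), chr17:47617559-47631195 (MATN4, matrilin-4) and chr7:54449830-54520606 (ACAN, aggrecan) of Sscrofa11.1, the build the files used. The 250 bases upstream of the RefSeq gene start are printed for the first pair of these and for COL9A3, COL11A2 and MATN1, matrix genes that rose together in these cells at E28. All are written on the strand of the gene from 5′ to 3′, and capitals mark each match, on either strand, to ACAATG or ACAAAG (cores bound by SOX proteins), GGGCGG (the GC box) or TATAAA (the TATA box).

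COL2A1, chr5:78380894-78381143, minus strand: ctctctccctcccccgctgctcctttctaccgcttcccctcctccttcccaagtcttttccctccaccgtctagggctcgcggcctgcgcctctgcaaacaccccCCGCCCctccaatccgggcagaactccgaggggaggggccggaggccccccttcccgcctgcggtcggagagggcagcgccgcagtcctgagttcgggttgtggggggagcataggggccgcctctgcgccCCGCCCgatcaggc

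MATN4, chr17:47631196-47631445, minus strand: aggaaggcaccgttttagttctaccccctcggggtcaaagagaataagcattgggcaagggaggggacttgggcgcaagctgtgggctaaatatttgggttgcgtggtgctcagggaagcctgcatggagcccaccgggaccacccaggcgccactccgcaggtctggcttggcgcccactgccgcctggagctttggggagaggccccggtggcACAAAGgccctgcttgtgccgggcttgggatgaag

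COL9A3, chr17:62073858-62074107, plus strand: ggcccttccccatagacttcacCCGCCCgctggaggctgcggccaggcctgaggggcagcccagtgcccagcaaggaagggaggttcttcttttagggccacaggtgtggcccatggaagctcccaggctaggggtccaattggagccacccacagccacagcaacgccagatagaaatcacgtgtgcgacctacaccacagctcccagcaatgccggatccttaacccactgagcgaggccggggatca

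COL11A2, chr7:25234881-25235130, minus strand: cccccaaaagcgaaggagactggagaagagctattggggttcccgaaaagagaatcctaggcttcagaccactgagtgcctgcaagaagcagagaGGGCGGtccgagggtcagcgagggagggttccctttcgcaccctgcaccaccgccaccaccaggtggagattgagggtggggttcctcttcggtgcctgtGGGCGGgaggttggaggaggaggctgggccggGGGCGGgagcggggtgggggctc

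MATN1, chr6:87351484-87351733, minus strand: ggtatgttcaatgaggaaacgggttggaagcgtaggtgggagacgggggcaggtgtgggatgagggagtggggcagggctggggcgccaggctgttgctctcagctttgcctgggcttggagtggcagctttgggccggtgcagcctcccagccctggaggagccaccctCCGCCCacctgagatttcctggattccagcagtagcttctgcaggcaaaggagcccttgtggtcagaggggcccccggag

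The COL2A1 window held 2 GC boxes and COL11A2 held 3, while COL9A3 and MATN1 held 1 each and MATN4 held 1 ACAAAG. Across the windows of 19547 protein-coding genes, 45.9% held the GC box, 12.1% ACAAAG, 7.29% ACAATG and 9.76% the TATA box. Among the 35 of 36 listed cartilage collagen and matrix genes with a RefSeq start, 12 (34.3%) held the GC box, 3 (8.57%: COL10A1, FMOD and MATN4) held ACAAAG, none held ACAATG and 5 (14.3%) held the TATA box. The GC content of the COL2A1 window was 70.8%, beside a median of 57.6% over all windows.

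Whether the members carried the other genes of cartilage was read from SOX9 and COL9A1, which the rule did not use. All levels are in CPM, the UMIs summed over the members of a library and given per 1000000 UMIs of those cells after trimmed mean (TMM) scaling. The members of E16, and members divided by MATN4, ACAN or COL2A1, are given without TMM, so their levels are not on quite the same scale as the others. SOX9, the master factor of cartilage, stood at 124 and 55.7 CPM at E18, 273 and 211 CPM at E21 and 368 and 287 CPM at E28, always with ZZ before DZ. COL9A1, a chain of type IX collagen, stood at 129.6 and 127 CPM at E18, 349 and 355 CPM at E21 and 1242 and 1746 CPM at E28. In all, 248 of the 3259 members (7.61%) had no UMI of either gene. At E21 and E28 both genes were above their level in the PAX1+ and LUM+ cells described further on, in each of the 4 libraries. In E18-DZ, SOX9 was lower in members than in PAX1+ cells (81.1 CPM), and in E18-ZZ higher (80.1 CPM).

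The E16 members, and part of those at E18, held keratin beside cartilage genes, and their label is in doubt. E16-ZZ and E16-DZ gave 11 and 14 members, in which KRT8, a keratin of epithelia and notochord, stood at 6788 and 2396 CPM. The summed level of the notochord list was 10385 and 3695 CPM there, 1539 and 1326 CPM at E18, and 8.20 and 15.2 CPM at E28. In all barcodes it was 7811 and 5929 CPM at E16 and 2390 and 1899 CPM at E18, so only the members of E16-ZZ were above their library. KRT8 and KRT18 gave most of it, with 519 and 252 UMIs in the E16-ZZ members, and both stand in the epithelial list too. TBXT, the defining notochord factor, had no UMI in any member. It was found in only 9 and 14 of all barcodes at E16 and in at most 1 of any later library. Its absence from the members therefore cannot tell notochord from other cells. Other genes of the notochord list were present in the E16 members (ZZ, then DZ). SHH had 6 and 3 UMIs, FOXA1 12 and 8, FOXA2 1 and 12, and CHRD 2 and 3. EPCAM, of the epithelial list, had 0 and 18. In the E18 members SHH had 12 and 0 UMIs and FOXA1 8 and 4. Which cells these were was not tested. Only 27.3% and 35.7% of the E16 members held MATN4, whereas 98.4% to 99.8% did at E21 and E28. Cartilage genes outside the rule were present too, more in E16-ZZ than in E16-DZ, with 288 and 45.5 CPM of SOX9 and 183 and 116 CPM of COL9A1. COL11A1 stood at 484 and 45.5 CPM and HAPLN1 at 405 and 136 CPM. Of the E16 members 54.5% and 64.3% held COL9A1, beside 19.9% and 19.7% of all E16 barcodes. The E16-DZ members were deeper, with a median of 13427 UMIs beside 5217 over all barcodes. Their SOX9 and COL11A1 were 9 UMIs each. The PAX1+ cells of E18, described further on, held 100.6 and 94.2 CPM of COL9A1. COL9A3 had no UMI in the E16 members. The 25 E16 members are called cells that met the rule, and they entered no gene test because each library had fewer than 20.

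At E18, members without MATN4 numbered 29 in E18-ZZ and 17 in E18-DZ, and their KRT8 stood at 1739.6 and 795 CPM. The members with MATN4 held 403 and 814 CPM of KRT8. In E21-ZZ, 10 members without MATN4 held 3898 CPM of KRT8 and 124 CPM of SHH, the hedgehog ligand of notochord and floor plate. The members with MATN4 at E21 and E28 had at most 9.39 CPM of KRT8. The effect of leaving out the members that lacked MATN4 is given beside the comparison of E21 with E18.

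The limit of 5 UMIs cut through a continuous range. Cells at 4 UMIs that met the rest of the rule numbered 783, and cells at 5 UMIs numbered 619. Just outside the limit COL9A1 stood at 334 and 245 CPM at E21 and 534 and 435 CPM at E28. Just inside it stood at 313 and 319 CPM, and 466 and 697 CPM. A further 1489 barcodes with 5 or more UMIs of COL2A1 had no UMI of MATN4 or ACAN, and 107 and 161 barcodes were lost to MYF5 and SOX10. The 1489 lay mostly in the early stages, with 185 and 247 at E16 and 336 and 371 at E18. At E21 there were 110 and 157, and at E28 41 and 42.

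Members had medians of 3274 UMIs (E28-DZ) to 13427 UMIs (E16-DZ), and the 4 libraries of E21 and E28 lay between 3274 and 5392. Scrublet, which scores barcodes for likeness to simulated doublets, placed 446 members among its highest scores, 12.5% to 14.3% of the members of the E21 and E28 libraries and 10.9% to 21.4% of those of E16 and E18. Over all barcodes the share was 9.06% to 13.7%, and in each of the 8 libraries it was below that of the members. The part of doublets in the members' values was not tested beyond leaving these barcodes out. Libraries shared 23 to 49 barcode sequences per pair, and 1 member barcode was shared, between E21-ZZ and E21-DZ.

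Cells that met the rule were rare at E16 and E18 and common at E21 and E28. They made up 0.175% and 0.132% of the barcodes in E16-ZZ and E16-DZ, and 0.524% and 0.619% in E18-ZZ and E18-DZ. The shares were 5.30% and 7.82% in E21-ZZ and E21-DZ, and 9.14% and 5.84% in E28-ZZ and E28-DZ. The exact 95% binomial intervals ran from 0.0722% to 0.789% over the early libraries and from 4.90% to 9.69% over the late ones. They cover counting error within a library only and do not measure the spread between pools of embryos. The need for MATN4 or ACAN bore unevenly on the stages. Barcodes with 5 or more UMIs of COL2A1 but neither partner were 185 to 371 per early library, beside 11 to 64 members. They were 41 to 157 per late library, beside 615 to 993 members. How much of the contrast came from the partner genes was not tested.

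The mean share was 0.362% ± 0.245 (SD, n = 4) in the early libraries and 7.02% ± 1.78 (SD, n = 4) in the late ones. The difference was 6.66 points (exact two-sided permutation test, p = 0.0286, the smallest that 70 divisions allow). The share is counted by the genes of the rule, which was chosen with earlier results of these data known. The p therefore describes cells that met the rule and is no independent support. With every barcode thinned to 2000 UMIs, which left out 216 to 1468 shallower barcodes per library, the shares were 0.0323% to 0.0822% early and 1.57% to 3.95% late. Within the 6 somite libraries the difference was 6.20 points and within the 6 libraries of Cell Ranger 3.0.2 it was 6.45 points, each with p = 0.0667, the smallest that 15 divisions allow in the exact permutation test. In all, 3116 members (95.6%) came from E21 and E28.

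**Figure D1:**
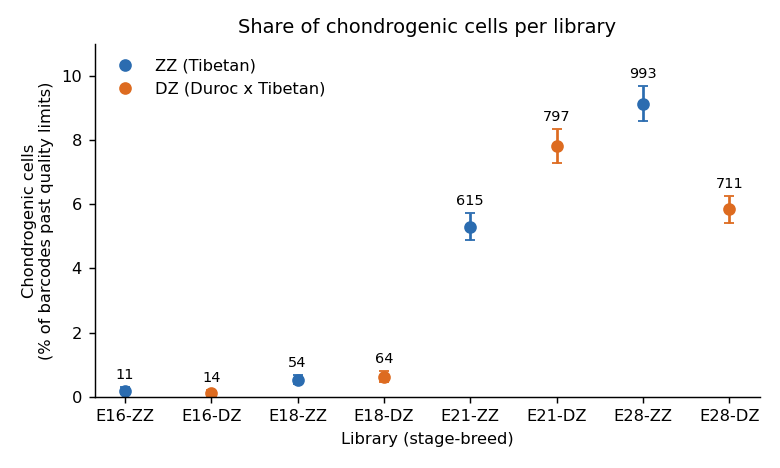
Share of barcodes that met the chondrogenic rule, in percent of barcodes past the quality limits, in each of the 8 libraries. Lines are exact 95% binomial intervals, which cover counting error only, and the numbers are member counts. The 4 libraries of E16 and E18 lie at 0.132% to 0.619%, and the 4 libraries of E21 and E28 at 5.30% to 9.14%.

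The genes of members were compared between stages on summed UMI counts with breed as a term (edgeR quasi-likelihood test, 6 libraries, 10838 genes tested besides those of the rule). Between E28 and E21, 419 genes were higher (3.87% of those tested) and 223 lower (2.06%) at an adjusted p under 0.05. Between E21 and E18, 207 genes were higher (1.91%) and 110 lower (1.01%). The 2 comparisons share the E21 libraries, so their values are set side by side and no overlap is drawn from them. Leaving out 1 library gave 303 (without E21-DZ) to 1009 genes (without E28-ZZ) for the later step and 194 (without E18-DZ) to 846 (without E28-ZZ) for the earlier one. A gene near 0 in one stage passes the filter on low counts only through the stage where it is high, so the counts and medians of the lists given further on describe the genes tested and not whole lists. Values after ± in the gene comparisons are worked back from the edgeR test. Each is the size of the log2 fold change divided by the square root of the F statistic. They are not standard errors estimated directly, and may be too small for genes with few UMIs.

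From E18 to E28 the cartilage collagens rose. All 5 genes of the list that passed the filter on low counts, of 7 in the files with COL2A1, were higher at E28 than at E21 (median log2 fold change 2.08, all genes −0.01), and 4 of 5 were higher at E21 than at E18 (median 1.78, all genes 0.04). E16 kept this order in DZ but not in ZZ. The summed level of the list, COL2A1 included, was 4185 and 854 CPM in the 11 and 14 members of E16 (ZZ, then DZ). It was 1344 and 1182 CPM at E18, 2321 and 2272 CPM at E21, and 5056 and 7826 CPM at E28. COL2A1 itself, a gene of the rule, stood at 1020.5 and 901 CPM at E18, 1569.7 and 1475 CPM at E21 and 2290.3 and 3764 CPM at E28.

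COL9A1 differed from E18 to E21 (log2 fold change 1.48 ± 0.22, adjusted p = 0.00516) and from E21 to E28 (log2 fold change 2.08 ± 0.20, adjusted p = 0.000192). Its lowest E28 library was above the highest at E21, and its lowest at E21 above the highest at E18. With 2 libraries per stage such separation is no added support, and its share over all genes is not given. COL9A3, another chain of collagen IX, was at 3.55 and 0 CPM at E18, 18.8 and 38.1 CPM at E21 and 159 and 319.7 CPM at E28. It was higher at E28 (log2 fold change 3.08 ± 0.23, adjusted p = 6.05e-05), and at E21 it had 237 UMIs against 2 at E18, a ratio of CPM of 15.2 with a counting interval of 4.16 to 126. COL9A3 thus stayed near the limit of detection at E18, where 3 UMIs are 5.68 to 6.12 CPM.

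COL11A1 and COL11A2 encode chains of collagen XI, which sets the width of type II fibrils. COL11A1 stood at 138 and 138 CPM at E18, 262 and 287 CPM at E21 and 839.6 and 1273 CPM at E28, and rose at E28 (log2 fold change 1.93 ± 0.20, adjusted p = 0.000317). COL11A2 stood at 35.5 and 1.92 CPM at E18, 62.6 and 68.7 CPM at E21 and 368 and 516 CPM at E28, and rose at E28 (log2 fold change 2.76 ± 0.37, adjusted p = 0.00147). Its E18 libraries lay far apart, and the change from E18 to E21 missed the threshold (log2 fold change 1.78 ± 0.55, adjusted p = 0.127). COL27A1, a fibrillar collagen of cartilage, stood at 16.0 and 13.5 CPM at E18, 58.6 and 49.0 CPM at E21 and 157 and 206 CPM at E28, and rose in both steps (at E28, log2 fold change 1.76 ± 0.20, adjusted p = 0.000592).

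The rise at E28 of COL9A1, COL9A3, COL11A1 and COL27A1 kept its call in all 18 alternatives, and that of COL11A2 lost it with DESeq2 only. None of the 4 calls from E18 to E21 was kept in all 16 alternatives. COL9A1 lost its call in 1, COL27A1 in 2, COL9A3 in 3 and COL11A1 in 4. Without E18-DZ the log2 fold changes were 1.34 for COL9A1, 2.41 for COL9A3, 1.72 for COL27A1 and 0.83 for COL11A1, none of them called. COL11A1 also lost its call without E18-ZZ (1.23) and without E21-ZZ (0.87). COL11A1 and COL27A1 were also not called with at least 10 UMIs of COL2A1 per 10000 UMIs. Over the 16 alternatives their lowest log2 fold changes were 0.56 and 0.90.

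Of 27 matrix proteins besides collagens in the files 19 passed the filter on low counts. Of these 12 were higher and 2 lower at E28 than at E21 (median log2 fold change 2.12), beside 3.87% and 2.06% of all genes. The filter is met by genes such as MATN1 and EPYC through E28 alone, so that these had to differ, and the count and median describe the genes that passed and are no support for a rise of the whole list. At E21 against E18, 5 were higher and none lower, beside 1.91% and 1.01% of all genes. The median of 2.15 became 0.13 when the 6 genes without any E18 UMI were set at their bound of 3 UMIs. The rule genes MATN4 and ACAN stood at 65.7 and 152 CPM at E18, 1522 and 1195 CPM at E21 and 2319 and 2769 CPM at E28 for MATN4, and at 99.4 and 42.3 CPM at E18, 139 and 121 CPM at E21 and 234 and 362 CPM at E28 for ACAN.

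MATN1, the matrilin of maturing cartilage, was near 0 until E28: it stood at 0 and 0 CPM at E18, 0 and 1.08 CPM at E21 and 33.4 and 165 CPM at E28. EPYC, a small proteoglycan also called epiphycan, stood at 0 and 0 CPM at E18, 1.23 and 1.52 CPM at E21 and 144 and 231 CPM at E28. These were the largest log2 fold changes at E28 among the matrix proteins, 7.40 ± 0.38 for MATN1 and 7.08 ± 0.28 for EPYC. Both genes passed the filter on low counts through E28 alone and had to differ, so no p is given. No E21 library held more than 1.52 CPM of either.

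HAPLN1, the link protein that ties aggrecan to hyaluronan, stood at 78.1 and 13.5 CPM at E18, 19.4 and 14.3 CPM at E21 and 168 and 326 CPM at E28. Only its rise at E28 passed the test (log2 fold change 3.90 ± 0.48, adjusted p = 0.0009). CNMD, or chondromodulin, an inhibitor of vessel growth, was at 3.55 and 1.92 CPM at E18, 5.86 and 6.499 CPM at E21 and 42.3 and 127 CPM at E28, higher at E28 (log2 fold change 3.69 ± 0.34, adjusted p = 0.00014). PRELP, a proteoglycan that binds collagen, had no UMI at E18 and 153 at E21, at least 6.55-fold more in CPM against a floor of 3 UMIs over both E18 libraries. PRELP then rose from 12.3 and 24.5 CPM at E21 to 67.5 and 87.4 CPM at E28 (log2 fold change 2.12 ± 0.22, adjusted p = 0.000592).

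MIA and CYTL1 encode proteins that chondrocytes secrete. MIA had 3 UMIs at E18 and 809 at E21, a ratio of CPM of 34.6 (counting interval 11.8 to 168), and rose from 74.9 and 123 CPM at E21 to 384 and 566 CPM at E28 (log2 fold change 2.29 ± 0.24, adjusted p = 0.00031). CYTL1 was at 8.87 and 0 CPM at E18, 49.0 and 50.7 CPM at E21 and 197 and 302 CPM at E28, a rise in both steps (at E28, log2 fold change 2.31 ± 0.27, adjusted p = 0.000734). SPARC, a collagen-binding glycoprotein, rose at E28 from 218 and 146 CPM at E21 to 594 and 457 CPM at E28 (log2 fold change 1.55 ± 0.17, adjusted p = 0.000522). In each of these genes both E28 libraries lay above both E21 libraries, which with 2 libraries per stage is no added support.

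SNORC, a small transmembrane proteoglycan of cartilage, was at 14.2 and 0 CPM at E18, 81.4 and 8.67 CPM at E21 and 206 and 443 CPM at E28, and it rose at E28 (log2 fold change 3.31 ± 0.79, adjusted p = 0.0332). Its E21 libraries were uneven. The 10 members of E21-ZZ without MATN4 held 4914 CPM of SNORC and the others 8.84 CPM. Without the members that lacked MATN4 the log2 fold change of SNORC was 5.21, and the call was lost in 3 of 18 alternatives, without E21-DZ among them (1.46).

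SCRG1 and CRTAC1 went the other way. SCRG1, a secreted protein found in differentiating cartilage, rose from 55.0 and 34.6 CPM at E18 to 168 and 214 CPM at E21 (log2 fold change 2.15 ± 0.32, adjusted p = 0.00544) and fell to 129 and 70.2 CPM at E28 (log2 fold change −0.99 ± 0.25, adjusted p = 0.0456). In the E18 members that held MATN4, SCRG1 stood at 4.12 and 6.01 CPM, and without the other members the fitted log2 fold change from E18 to E21 was 5.31, from very few UMIs at E18. CRTAC1, cartilage acidic protein, stood at 24.8 and 26.9 CPM at E18, 74.3 and 50.04 CPM at E21 and 33.0 and 28.0 CPM at E28. CRTAC1 also fell at E28 (log2 fold change −1.01 ± 0.20). SCRG1 lost its fall in 6 of 18 alternatives, with −0.41 without E21-DZ and −0.51 without E28-DZ, and CRTAC1 in 2, with −0.74 without E21-ZZ. The earlier rise of CRTAC1 was not called without E18-ZZ (1.02) or E21-ZZ (1.03). Nor was it called with at least 10 UMIs of COL2A1 per 10000 UMIs.

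The remaining rises at E28 were those of MATN2 (log2 fold change 1.61 ± 0.25), FMOD (1.52 ± 0.34) and WIF1, an inhibitor of WNT ligands (3.11 ± 0.56). FMOD and WIF1 lost their calls without E21-DZ (1.68 and 2.09), and FMOD also without E21-ZZ (1.41). MATN1, HAPLN1, CNMD, EPYC, PRELP and SPARC kept the call at E28 in all 18 alternatives, 6 of the 14 matrix genes called. For MATN1 and EPYC, which had to differ, this is no support. SCRG1, MIA and PRELP kept theirs at E21 against E18 in all 16 alternatives.

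**Figure D2:**
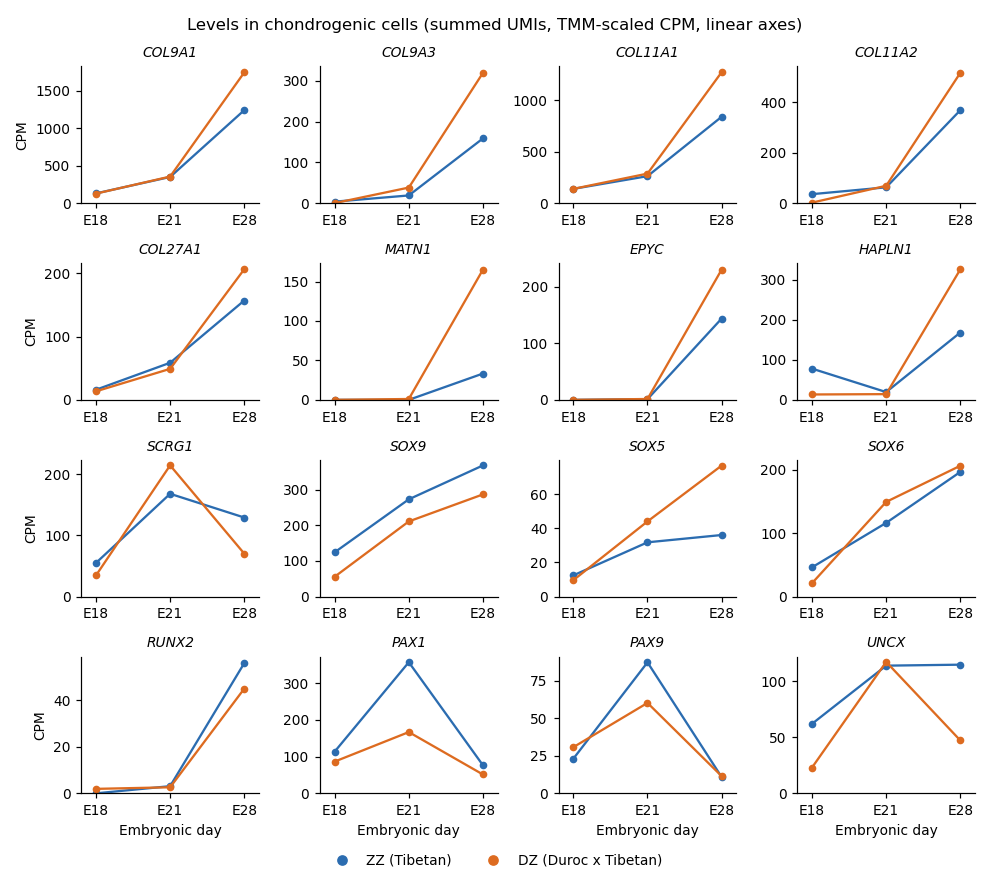
Level of 16 genes in chondrogenic cells at E18, E21 and E28 in CPM (linear axes from 0), 1 point per library, joined within ZZ and within DZ. Collagens and matrix proteins such as COL9A1 (1242 and 1746 CPM at E28) rise to E28 in both breeds, whereas PAX1 is highest at E21 (357 and 166.8 CPM).

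Among 14 tested transcription factors of cartilage, 4 were higher at E21 than at E18 and none lower (median log2 fold change 1.54, or 0.99 with genes at 0 set at their bound). The shares over all genes were 1.91% and 1.01%. At E28 against E21, 3 were higher and 1 lower (median 0.52), beside 3.87% and 2.06% of all genes. SOX9, SOX5, SOX6 and TRPS1 rose at the earlier step, and RUNX2 and RUNX3 at the later step.

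SOX9 rose from E18 to E21 (log2 fold change 1.49 ± 0.23, adjusted p = 0.00729), and its difference between E28 and E21 missed the threshold (log2 fold change 0.44 ± 0.20, adjusted p = 0.25). SOX6, its partner in activating matrix genes, was at 46.1 and 21.1 CPM at E18, 116 and 149.3 CPM at E21 and 196 and 206 CPM at E28 (E21 against E18, log2 fold change 1.98 ± 0.31, adjusted p = 0.00629). SOX5, the other partner, was at 12.4 and 9.61 CPM at E18, 31.8 and 44.0 CPM at E21 and 36.0 and 76.6 CPM at E28 (E21 against E18, log2 fold change 1.79 ± 0.41, adjusted p = 0.0447). For SOX9, SOX5 and SOX6 both E21 libraries lay above both E18 libraries, which with 2 libraries per stage is no added support. The SOX6 call at E21 was lost in 1 of 16 alternatives, that of SOX9 in 2 (1.15 without E18-DZ) and that of SOX5 in 8 (1.20 without E18-DZ and 1.57 without E21-ZZ). SOX6, SOX9 and SOX5 all lost the call with at least 10 UMIs of COL2A1 per 10000 UMIs, a limit scaled to depth.

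TRPS1, a repressor of chondrocyte maturation, rose from 8.87 and 13.5 CPM at E18 to 53.0 and 58.3 CPM at E21 (log2 fold change 2.37 ± 0.39, adjusted p = 0.00867), a call kept in all 16 alternatives, and stood at 38.9 and 77.0 CPM at E28. RUNX2, which drives chondrocyte maturation and bone, stood at 0 and 1.92 CPM at E18, 3.08 and 2.60 CPM at E21 and 55.8 and 44.9 CPM at E28, higher at E28 (log2 fold change 4.13 ± 0.30). RUNX3, which acts with RUNX2 in maturing cartilage, stood at 0 and 0 CPM at E18, 2.16 and 2.17 CPM at E21 and 15.8 and 23.0 CPM at E28, higher at E28 (log2 fold change 3.15 ± 0.42). Both RUNX genes passed the filter on low counts through E28 alone, so no p is given. Their calls were kept in all 18 alternatives, which is no support. CREB3L2, a factor for the secretory pathway, had a log2 fold change of 0.70 ± 0.18 at E28, and ZNF219, a partner of SOX9, of −1.05 ± 0.25. These calls were lost in 7 and 5 alternatives, and both were lost without E21-DZ (0.71 and −1.20), E21-ZZ (0.72 and −0.85) and E28-DZ (0.55 and −0.97).

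The sclerotome list moved in both directions. At E21 against E18, 3 of 7 genes were higher and 1 lower (median 1.35), beside 1.91% and 1.01% of all genes. At E28 against E21, 2 were higher and 2 lower (median −0.64), beside 3.87% and 2.06% of all genes. PAX1, the factor of the ventral sclerotome, rose from 114 and 86.5 CPM at E18 to 357 and 166.8 CPM at E21 (log2 fold change 1.35 ± 0.22, adjusted p = 0.00867) and fell to 76.4 and 51.3 CPM at E28 (log2 fold change −1.97 ± 0.20, adjusted p = 0.000266). PAX9, its close relative, stood at 23.1 and 30.7 CPM at E18, 87.2 and 60.2 CPM at E21 and 10.9 and 11.5 CPM at E28 (E28 against E21, log2 fold change −2.71 ± 0.24, adjusted p = 0.00014). In both genes the 2 E21 libraries lay above those of E18 and E28, which with 2 libraries per stage is no added support.

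UNCX, a factor of the caudal sclerotome, rose from 62.1 and 23.1 CPM at E18 to 114 and 117 CPM at E21 (log2 fold change 1.57 ± 0.36, adjusted p = 0.0454) and stood at 115 and 47.3 CPM at E28. MGP, an inhibitor of calcification expressed by cartilage, rose from 11.098 and 12.998 CPM at E21 to 197 and 285 CPM at E28 (log2 fold change 4.32 ± 0.20, adjusted p = 2.08e-06). MEOX2, a homeobox gene of the somite, rose at E28 by 1.30 ± 0.26. The falls of PAX1 and PAX9 and the rise of MGP at E28 were kept in all 18 alternatives, while MEOX2 lost its call without E21-ZZ (0.75) and without E28-ZZ (0.77). At E21 against E18, PAX1, PAX9 and UNCX lost their calls in 2, 4 and 4 of 16 alternatives. Without E18-ZZ the log2 fold changes were 1.13 for PAX1 and 1.13 for PAX9. PAX9 also lost its call without E21-ZZ (1.08), and UNCX had 1.25 without E18-DZ and 0.95 without E21-DZ. UNCX was also not called with at least 10 UMIs of COL2A1 per 10000 UMIs.

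**Figure D3:**
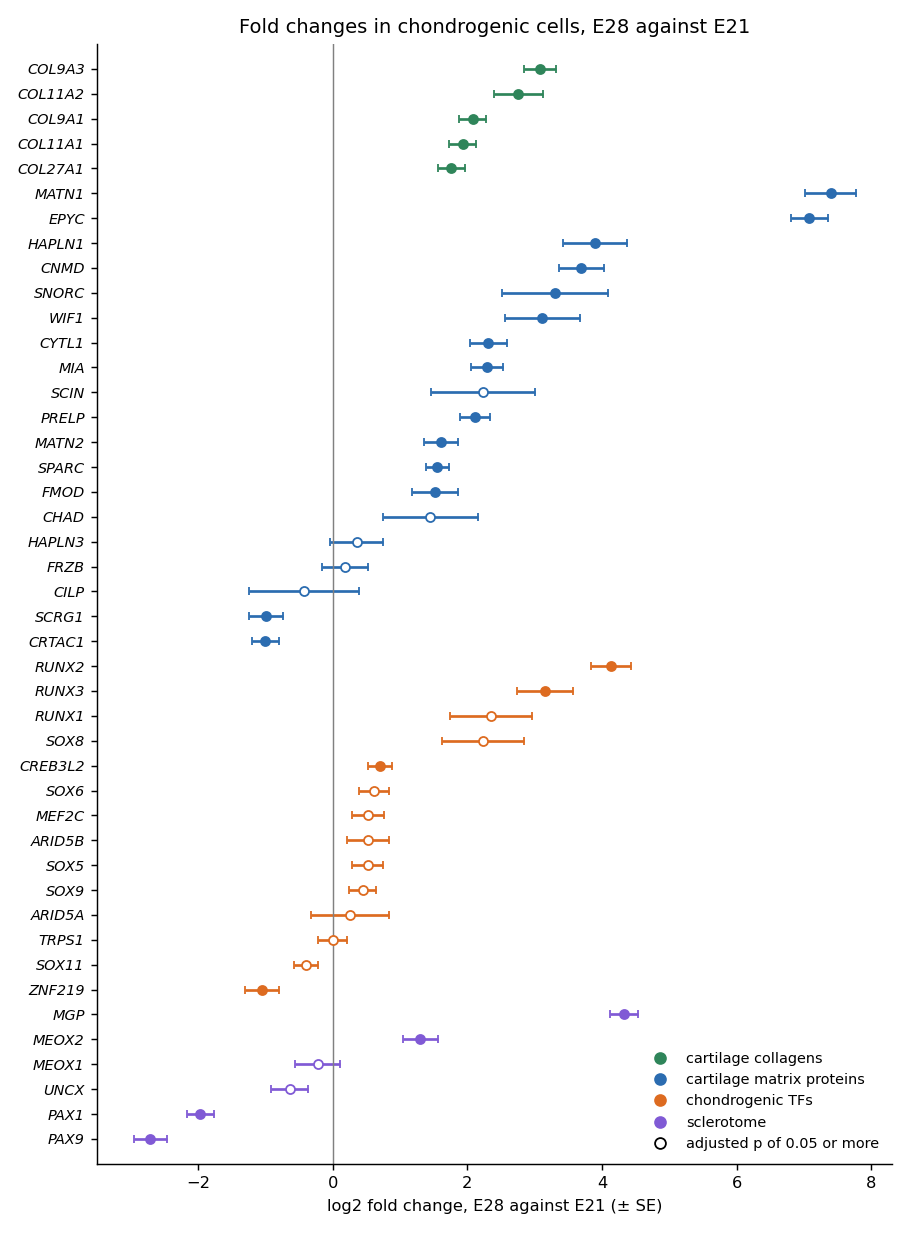
Log2 fold change of E28 against E21 in chondrogenic cells for tested genes of 4 lists (cartilage collagens, cartilage matrix proteins, chondrogenic transcription factors and sclerotome). Bars, which the axis labels SE, are the values worked back from the edgeR test. Filled points passed an adjusted p of 0.05 in edgeR and open points did not. Filled points above 0 stand for all 5 collagens and 12 of 19 matrix proteins, MATN1 farthest at 7.40, while PAX1 (−1.97) and PAX9 (−2.71) lie below. Genes such as MATN1 and EPYC passed the filter on low counts through E28 alone and had to differ, so the 12 are no support for a rise of the list.

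Genes that build and export the matrix were read from 2 further lists. In chondroitin sulfate synthesis 6 of 24 genes were higher at E28 and none lower (median 0.35), beside 3.87% and 2.06% of all genes. None passed at E21 against E18, beside 1.91% and 1.01% of all genes. PAPSS2, which makes the sulfate donor, rose from 4.93 and 6.72 CPM at E21 to 39.8 and 72.2 CPM at E28 (log2 fold change 3.26 ± 0.26, adjusted p = 8.16e-05). XYLT1, which starts the sugar chains, rose by 1.74 ± 0.36, CSGALNACT1, which starts chondroitin, by 3.77 ± 0.71 and CHPF, a chondroitin polymerizing factor, by 0.88 ± 0.19. CSGALNACT1 passed the filter on low counts through E28 alone, so its call is no support. Only 1 of the 6 called genes, PAPSS2, kept the call whichever library was left out. The other 3 named here lost it without E21-DZ (1.65, 4.56 and 0.71), XYLT1 and CHPF without E28-DZ (1.65 and 0.81), and CSGALNACT1 without E21-ZZ (3.27) or E28-ZZ (3.59).

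In collagen processing and secretion 13 of 31 genes were higher and 1 lower at E28 (median 0.60), beside 3.87% and 2.06% of all genes. None passed at E21 against E18, beside 1.91% and 1.01% of all genes. The 13 included the prolyl hydroxylase subunits P4HA1 (1.03 ± 0.23), P4HA3 (1.65 ± 0.24) and P4HB (0.98 ± 0.17), the lysyl hydroxylase PLOD1 (1.00 ± 0.19), and SERPINH1, the collagen chaperone (0.87 ± 0.19). P3H2, a prolyl 3-hydroxylase, was the gene that fell (−1.65 ± 0.24). The whole list summed to 2372 and 2019 CPM in the members of E21 and to 3230 and 3571 CPM in those of E28, and in all barcodes to 1613 and 1618 CPM and to 2741 and 2465 CPM. Of the 14 called genes 4 kept the call whichever library was left out. Without E21-DZ the rises of P4HA1 (1.07), P4HB (0.90), PLOD1 (0.74) and SERPINH1 (0.65) were not called, SERPINH1 was not called without E28-DZ (0.67), and neither was P4HA1 without E21-ZZ (1.02) or E28-DZ (0.83).

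Of the growth plate signals, 8 of 18 genes rose at E28 and none fell (median 1.03), beside 3.87% and 2.06% of all genes. None passed at E21 against E18, beside 1.91% and 1.01% of all genes. IHH, the Indian hedgehog ligand of maturing chondrocytes, had 0 UMIs in the E21 members and 86 at E28. This is at least 27.7-fold more in CPM against a floor of 3 UMIs over both E21 libraries. IHH passed the filter on low counts through E28 alone and had to differ. FGFR3, a brake on chondrocyte growth, rose from 24.7 and 19.7 CPM at E21 to 39.1 and 50.6 CPM at E28 (log2 fold change 1.02 ± 0.24, adjusted p = 0.0304). FGFR4 rose from 6.17 and 5.20 CPM at E21 to 53.6 and 40.5 CPM at E28 (log2 fold change 3.04 ± 0.26, adjusted p = 0.000111). PTH1R, the receptor for parathyroid hormone-related protein, rose by 0.94 ± 0.23, and IGFBP5, which binds insulin-like growth factors, by 2.03 ± 0.20. Of the 8 called genes 4 kept the call whichever library was left out. FGFR3 and PTH1R lost their calls without E21-DZ (0.62 and 1.05) and without E28-DZ (0.73 and 0.86), and PTH1R without E21-ZZ (0.85).

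The hedgehog list had 3 of 10 genes higher and 2 lower at E28 (median 0.16), beside 3.87% and 2.06% of all genes. PTCH1, a receptor and target of the pathway (97.4 and 80.6 CPM at E21 and 42.1 and 56.4 CPM at E28), fell, with a log2 fold change of −0.85 ± 0.22. IHH, BOC, a co-receptor (1.25 ± 0.25), and GLI3, a transcriptional effector (0.82 ± 0.17), rose. Of the 5 called genes 1 (IHH) kept the call whichever library was left out. IHH had no UMI at E21 and passed the filter on low counts through E28 alone, so its kept call is no support. The fall of PTCH1 was not called without E21-DZ (−1.03), E21-ZZ (−0.65) or E28-ZZ (−0.45). BOC and GLI3 lost theirs without E21-DZ (1.26 and 0.89), and GLI3 without E21-ZZ (0.77).

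In the BMP and TGF-beta list 6 of 32 genes rose at E28 and none fell (median 0.49), beside 3.87% and 2.06% of all genes. At E21 against E18, 4 rose and 1 fell, beside 1.91% and 1.01% of all genes. BMP5, a ligand, rose in both steps, from 7.10 and 3.84 CPM at E18 to 18.2 and 34.9 CPM at E21 and 87.7 and 136 CPM at E28 (E28 against E21, log2 fold change 2.10 ± 0.21, adjusted p = 0.000206). GDF5, the ligand of joint-forming cells, had 1 UMI at E21 and 116 at E28, and NOG, an inhibitor of BMP ligands, rose from 3.70 and 2.17 CPM at E21 to 17.2 and 24.0 CPM at E28 (log2 fold change 2.83 ± 0.44). GDF5 and NOG passed the filter on low counts through E28, so no p is given for them. At E21 against E18, BMPER, a BMP-binding protein, had 219 UMIs against 3, a ratio of 9.37 (counting interval 3.16 to 45.8), TGFB2 rose by 1.70 ± 0.26 and ID4, a BMP target, by 1.66 ± 0.22. FST, an inhibitor of activins, fell from 76.3 and 88.4 CPM at E18 to 12.0 and 6.72 CPM at E21 (log2 fold change −3.14 ± 0.35, adjusted p = 0.00111). The earlier rise of BMP5 was not called without E18-DZ (1.47) or E21-DZ (2.04).

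Markers of hypertrophy, the enlargement before bone, were scarce. Of 18 in the files 7 passed the filter on low counts, and RUNX2 and IHH, which passed it through E28, were called higher at E28. COL10A1, the collagen of hypertrophic cartilage, had no UMI in any member, which allows up to 0.549 CPM in E28-ZZ and 1.09 CPM in E28-DZ. MMP13, IBSP and PANX3 also had none. Detected genes included SPP1, with 62 and 5 UMIs in the members of E28-ZZ and E28-DZ, BGLAP with 25 and 7, and ALPL with 7 and 8. COMP, which stands in the list of cartilage matrix proteins and not in this one, had no UMI in any member.

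Genes of fibrous connective tissue rose at E28 as well, 16 of 20 higher and none lower (median 1.34), beside 3.87% and 2.06% of all genes. At E21 against E18, 4 were higher and 2 lower, beside 1.91% and 1.01% of all genes. With any 1 library left out 11 of the 16 calls were kept at E28, and 2 of the 6 at the earlier step. COL1A1, type I collagen, went from 88.8 and 133.2 CPM at E21 to 699 and 683 CPM at E28 (log2 fold change 2.65 ± 0.22, adjusted p = 0.000103), and POSTN, periostin of the perichondrium and periosteum, from 25.3 and 36.6 CPM at E21 to 1159 and 709.6 CPM at E28 (log2 fold change 4.86 ± 0.31, adjusted p = 2.13e-05). The summed level of the whole list in members was 3102 and 2834 CPM at E18, 3492 and 3004 CPM at E21, and 8094 and 6565 CPM at E28. In all barcodes of the same libraries it was 2708 and 3280 CPM, 2720 and 3453 CPM, and 8768 and 7509 CPM. The part of RNA from other cells in the members' fibrous genes was not tested.

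Of the tendon list 5 of 6 genes rose at E28 and none fell (median 1.92), beside 3.87% and 2.06% of all genes. THBS4, a thrombospondin of tendon and cartilage, rose from 8.94 and 6.499 CPM at E21 to 49.0 and 178 CPM at E28 (log2 fold change 3.73 ± 0.44, adjusted p = 0.0011), TNC, tenascin-C, from 27.4 and 50.5 CPM at E21 to 218 and 162 CPM at E28 (log2 fold change 2.33 ± 0.27, adjusted p = 0.000613), and TNMD, tenomodulin, by 0.81 ± 0.17. MKX, a tendon factor, had 1 UMI at E18 and 201 at E21, a ratio of 25.8 with a counting interval of 4.58 to 1024. TNMD lost its call without E21-DZ (0.85) and without E21-ZZ (0.78), and MKX without E18-ZZ. The whole list summed to 146 and 157 CPM in the members of E21 and to 520 and 529 CPM in those of E28, to 123 and 119 CPM and to 310 and 386 CPM in the PAX1+ cells described further on, and to 72.4 and 90.5 CPM and to 307 and 350.1 CPM in all barcodes.

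Inhibitors of vessels and ossification rose in 7 of 12 cases and fell in 2 at E28 (median 0.78), beside 3.87% and 2.06% of all genes. The 7 included MGP, CNMD, TNMD, THBS1 (1.52 ± 0.18) and TIMP3 (1.04 ± 0.19), and the 2 that fell were SLIT2 (−1.31 ± 0.34) and SEMA3C (−0.99 ± 0.20), both guidance molecules. Of these 9 calls 3 were kept whichever library was left out. TIMP3 was not called without E21-ZZ (0.83), SLIT2 without E21-ZZ (−1.02) or E28-ZZ (−0.56), and SEMA3C without E21-DZ (−0.72). In the WNT list 5 of 21 rose at E28 and none fell (DKK2, FZD9, SFRP1, SFRP2 and WIF1), beside the same shares of all genes. At E21 against E18 WNT5B rose (1.92 ± 0.45) and SFRP1 fell (−1.87 ± 0.18), beside 1.91% and 1.01% of all genes. SFRP2 lost its call without E21-DZ (1.01), E21-ZZ (1.11) or E28-DZ (0.62), WIF1 without E21-DZ, and WNT5B without any 1 of the E18 and E21 libraries (1.81 to 2.08).

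By the naming rule, which took genes of at least 50 CPM with the same direction in every pair of libraries, the largest rises at E28 also included NPNT, nephronectin, a matrix ligand of integrins, from 1.85 and 2.82 CPM at E21 to 31.6 and 147 CPM (log2 fold change 5.18 ± 0.42). ECRG4 rose by 5.09 ± 0.72 and TM4SF1, a tetraspanin-like membrane protein, by 4.79 ± 0.27. By the same rule the largest falls were those of INA, a neuronal intermediate filament (−4.13 ± 0.55), HBZ, an embryonic globin (−3.66 ± 0.91), TUBB3, a neuronal tubulin (−2.93 ± 0.75), PAX9, ATF3, CKB, NR2F1 and PAX1. HBZ was uneven, at 19.6 to 819 CPM over the 6 libraries, and TUBB3 was not called without E21-ZZ (−0.83). The neural tube list, which holds TUBB3, summed to 830 and 446 CPM in the members of E21 and 368 and 435 CPM in those of E28. In all barcodes it summed to 3278 and 1515 CPM at E21 and 856 and 1361 CPM at E28. The part of RNA from other cells in the members' neural genes was not tested.

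The myogenic list summed to 133.6 and 626 CPM in the members of E28 and to 2127 and 4267 CPM in all barcodes. In it 1 of 10 tested genes was higher at E28, beside 3.87% of all genes (MSC, a repressor of muscle genes, 3.19 ± 0.67). MSC passed the filter on low counts through E28 alone, so its call is no support. Of 8 neural tube genes 3 fell at E28 (TUBB3, ELAVL3 and PAX6), beside 2.06% of all genes, and none of the 3 kept its call whichever library was left out. PAX6 lost it without any 1 of the E21 and E28 libraries, ELAVL3 without E21-DZ, E21-ZZ (−1.63) or E28-ZZ (−2.14), and TUBB3 without E21-ZZ. CDH19, a cadherin of neural crest glia, rose from 1 UMI at E21 to 292 at E28, the gene called of 6 in its list. CDH19 too passed the filter through E28, so its call is no support. Of 49 genes of the G2 and M phases, 6 were lower at E28, beside 2.06% of all genes, and none higher (median −0.47). TOP2A was among the 6 (768 and 812 CPM at E21 and 554 and 398 CPM at E28). All 6 (BIRC5, CDCA3, CENPE, CENPF, DLGAP5 and TOP2A) lost the call without E21-DZ (−0.82 to −0.57). None of 38 S phase genes passed at E28, beside 3.87% higher and 2.06% lower of all genes. The fall of TOP2A was not called without any of E18-DZ, E18-ZZ, E21-DZ or E28-DZ (−0.75, −0.75, −0.57 and −0.52). The rise of MSC was not called with any E21 or E28 library left out (2.89 to 3.38).

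From E18 to E21 the largest rises by the naming rule (at least 50 CPM and the same direction in every pair of libraries) were those of FIBIN, MIA, CREB5, NFIB, RFLNA, INA, PMEPA1 and ADGRG6. RFLNA, refilin A, an actin regulator of chondrocytes, rose from 12.4 and 13.5 CPM to 424 and 323 CPM (log2 fold change 4.88 ± 0.35, adjusted p = 0.00012). FIBIN had 702 UMIs at E21 against 2 at E18 (ratio 45.0, counting interval 12.4 to 373), CREB5, a factor of joint cartilage, 443 against 2 (28.4, 7.82 to 235), and NFIB 664 against 3 (28.4, 9.68 to 138). ADGRG6, an adhesion receptor of cartilage and Schwann cells, had 498 against 3 (21.3, 7.25 to 104). INA lost its call without E18-ZZ. The neural tube list rose in the same step in all barcodes, from 470 and 634 CPM to 3278 and 1515 CPM. In the members it went from 337 and 340 CPM to 830 and 446 CPM.

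The largest falls from E18 to E21 by that rule were KRT18, KRT8, ITLN2, KRT14, FST, PRTG, IGDCC4 and DSP. KRT8 fell from 1054 and 761 CPM at E18 to 62.6 and 9.75 CPM at E21 (log2 fold change −5.04 ± 0.45, adjusted p = 0.000268). All 5 tested genes of the epithelial list fell (median −5.46), and 2 of 4 of the notochord list, KRT8 and KRT18, which both lists hold. These 2 kept the call whichever library was left out, while CLDN6 and EPCAM lost it without E18-DZ or E21-DZ and CLDN7 without E21-DZ. ITLN2 lost its call without E18-ZZ (−3.01) or E21-ZZ (−2.90). The epithelial list summed to 1537 and 1503 CPM in the E18 members and to 91.2 and 15.2 CPM in those of E21, with 2446 and 1944 CPM in all barcodes of E18 and 105 and 87.9 CPM in those of E21, and its part in the other differences was not tested. PRTG, protogenin of the early mesoderm, fell from 181 and 284 CPM to 29.0 and 26.4 CPM. Since members without MATN4 were 29 of 54 and 17 of 64 at E18, the same comparison without them called 270 genes, 198 of the 317 among them. Then the log2 fold change of SOX6 was 3.57 and that of UNCX 2.63, while SOX5 (2.04) and PAX9 (1.52) lost their calls. MIA had no UMI in the E18 members that held MATN4, and CYTL1 stood there at 4.12 and 0 CPM. Both kept their calls.

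With library totals and no TMM, 176 genes were higher and 171 lower at E21, beside 207 and 110 with TMM, and the median of all genes moved from 0.04 to −0.08. Of the immediate early and heat shock list 4 of 7 genes rose at E21 against E18, beside 1.91% of all genes. They were FOSB (2.52 ± 0.30), FOS, ATF3 and HSPB1. FOSB kept its call whichever library was left out. FOS (1.49), ATF3 (1.07) and HSPB1 (0.73) lost theirs without E18-DZ, FOS also without E21-ZZ (1.16), and HSPB1 without E18-ZZ (1.13) or E21-DZ (0.82). Of 19 glycolysis genes 3 fell, LDHA (−0.96 ± 0.20), PGAM1 and PKM, beside 1.01% of all genes. MCM2 (−0.95 ± 0.19) was the S phase gene that fell, of 38, and nothing is read from this count beside that share of all genes. LDHA lost its call without E18-ZZ (−0.78) or E21-DZ (−0.85), PGAM1 and PKM without E18-DZ, E18-ZZ or E21-DZ, and MCM2 without any 1 of the E18 and E21 libraries.

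Between the breeds few genes passed the test with all 6 libraries in it. With stage as a term, 5 genes were higher in DZ than in ZZ (0.0461% of 10838 tested) and none lower (0.0%). At an unadjusted p under 0.05 edgeR had 432 higher and 228 lower, and DESeq2 called 7 higher and 1 lower after adjustment. Leaving out any 1 of the 6 libraries gave more calls, from 44 genes (without E21-DZ) to 103 (without E28-ZZ), so the count of 5 does not bound how many genes differed. The 5 were FOSB, ATF3 and NR4A1, genes that respond within minutes to stimuli and to cell dissociation, CCDC173, and MATN1, with CCDC173 and NR4A1 named after their values were seen.

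FOSB stood at 21.3, 99.6 and 49.0 CPM in the E18, E21 and E28 libraries of ZZ, and at 67.3, 387 and 320.0 CPM in those of DZ (log2 fold change 2.28 ± 0.21, adjusted p = 0.00429). ATF3 stood at 12.4, 27.7 and 4.00 CPM in ZZ, and at 26.9, 154.7 and 32.4 CPM in DZ (log2 fold change 2.54 ± 0.25, adjusted p = 0.00493). At E18, E21 and E28 DZ was above ZZ for both. At E16, which entered no gene test, ZZ was above DZ, with 523 and 142 CPM of FOSB and 222 and 55.6 CPM of ATF3 in the members. The same order held in the PAX1+ cells, where FOSB was at 7.42 and 34.6 CPM at E18, 60.8 and 376 CPM at E21 and 79.6 and 344 CPM at E28, and in the LUM+ cells, at 34.8 and 124 CPM at E18, 45.1 and 243 CPM at E21 and 52.1 and 316 CPM at E28. The dissociation list, with 2 of 7 tested genes called between breeds, summed to 1851 to 2278 CPM in the members of the ZZ libraries of E18 to E28 and to 2020 to 4931 CPM in those of DZ. At E16 the order was reversed, with 4957 CPM in ZZ and 2983 CPM in DZ. In all barcodes the sums for ZZ and DZ were 4661 and 3260.1 CPM at E16, 2091 and 2229 CPM at E18, 2022 and 2311 CPM at E21, and 2499 and 5240.4 CPM at E28. The part of the digest in these differences was not tested.

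NR4A1, a nuclear receptor of the same early response, averaged 44.2 CPM in DZ and 11.9 CPM in ZZ (log2 fold change 1.89 ± 0.21, adjusted p = 0.00645), and CCDC173 averaged 31.1 and 6.77 CPM (log2 fold change 2.38 ± 0.26, adjusted p = 0.00645). MATN1 (log2 fold change 2.40 ± 0.29, adjusted p = 0.0207) had 165 CPM in DZ and 33.4 CPM in ZZ at E28, and at most 1.08 CPM at E18 and E21. Its call rests on 1 E28 library of each breed, so the p does not stand for a breed difference over the stages. MATN1 was not called without E28-DZ (4.47) or without E28-ZZ (4.22), fits in which the breeds are compared at those low levels. Of 19 matrix proteins MATN1 was the gene called between breeds, and of the 5 collagens none was (median 0.22, all genes 0.00). COL9A3, which was higher in DZ at E21 and E28, missed the threshold (log2 fold change 1.01 ± 0.22, adjusted p = 0.2).

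The nearest cells of the sclerotome were taken as barcodes with PAX1 but fewer than 5 UMIs of COL2A1 and no MATN4, ACAN, MYF5 or SOX10 (PAX1+ cells, 4524 in all). Since both classes were cut by these genes in the same cells, the differences between them describe the classes, and no p is given. Of 10154 genes, 201 were higher (1.98%) and 168 lower (1.65%) in chondrogenic than in PAX1+ cells of the same library at an adjusted p under 0.05, and nothing is read from these counts but the spread between libraries. Without TMM they were 175 and 227, and leaving out 1 library gave 188 (without E21-ZZ) to 474 genes (without E18-DZ) in both directions together.

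The 5 tested cartilage collagens had a median log2 fold change of 2.20 and the 13 matrix proteins one of 1.18, beside −0.01 over all genes. COL11A2 differed by 4.71 ± 0.40, COL9A3 by 5.17 ± 0.22 and MIA by 5.59 ± 0.43. SNORC stood at 3.40 and 1.08 CPM in the PAX1+ cells of E28, where the chondrogenic cells had 206 and 443 CPM. MATN1 and EPYC had at most 0.239 CPM in any PAX1+ library.

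SCRG1 differed by 3.51 ± 0.15, but at E18 the members that held MATN4 (4.12 and 6.01 CPM) stood near the PAX1+ cells (5.56 and 3.56 CPM). APOD, an apolipoprotein, differed by 3.38 ± 0.28 and WWP2, a ubiquitin ligase whose gene hosts a cartilage microRNA, by 3.04 ± 0.21. These 3 had the largest differences by the naming rule, with RFLNA (2.24 ± 0.19), COL11A1, COL9A1, SOX6 (1.97 ± 0.20) and COL27A1. On the lower side stood NBL1, a BMP antagonist (−1.97 ± 0.15), RSPO3, an amplifier of WNT signals (−1.59 ± 0.21), NEFL, EBF3, S1PR3, CYP1B1, ATP8A1 and SMARCA2.

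SOX9 was at 80.1 and 81.1 CPM at E18, 92.8 and 78.0 CPM at E21 and 70.8 and 63.0 CPM at E28 in the PAX1+ cells, and at E21 and E28 both chondrogenic libraries were above these, as was E18-ZZ but not E18-DZ. PAX9, not used by either rule, differed by −0.11 ± 0.40, with 51.7 and 33.4 CPM at E28 in PAX1+ cells and 10.9 and 11.5 CPM at E28 in chondrogenic cells. It was higher in chondrogenic cells at E21 and lower at E28. LUM, lumican, differed by 0.84 ± 0.18, and was higher at E21 and E28 than at E18 in both classes.

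A further class was taken as barcodes with LUM, a proteoglycan gene of connective tissue, but without OGN, with fewer than 5 UMIs of COL2A1 and no MATN4, ACAN, MYF5 or SOX10 (LUM+ cells, 8841 in all). Here too the classes were cut by the genes of the rules, and no p is given. Of 11073 genes, 360 were higher (3.25%) and 568 lower (5.13%) in chondrogenic cells, and nothing is read from these counts but the spread between libraries. The LUM+ cells of E18 held 5221 and 6662 CPM of KRT8, and 7670 and 9559 CPM of the notochord list. Their cartilage matrix proteins summed to 616 and 662 CPM, beside 642 and 448 CPM in the chondrogenic cells of E18. With the 4 libraries of E21 and E28 alone 1328 genes were called. Leaving out 1 library gave 410 (without E28-ZZ) to 1051 genes (without E18-DZ).

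The 5 collagens had a median log2 fold change of 4.15 and the 14 matrix proteins one of 0.72, beside −0.01 over all genes. The 8 sclerotome genes had a median of 0.57, with PAX1 at 2.94 ± 0.37, PAX9 at 3.25 ± 0.35 and UNCX at 2.86 ± 0.31. PTCH1, a hedgehog target, differed by 2.34 ± 0.31, and the 9 hedgehog genes had a median of 0.18. By the naming rule SCRG1 (4.53 ± 0.21), COL9A1, WWP2 (3.96 ± 0.39), APOD, SOX9 (3.15 ± 0.43) and COL11A1 completed the largest rises with PAX1 and UNCX.

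By the same rule, the largest differences toward LUM+ cells included CXCL14, KRT8, ACTA2, C1QTNF3, KRT14, MYL1 and DCN, which include muscle, keratin and loose connective tissue genes. The median was −2.42 over 12 myogenic genes, −1.96 over 10 endothelial genes, 0.35 over 49 genes of the G2 and M phases and −0.49 over 18 fibrous genes, with COL6A1 at −0.999 ± 0.17.

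**Figure D4:**
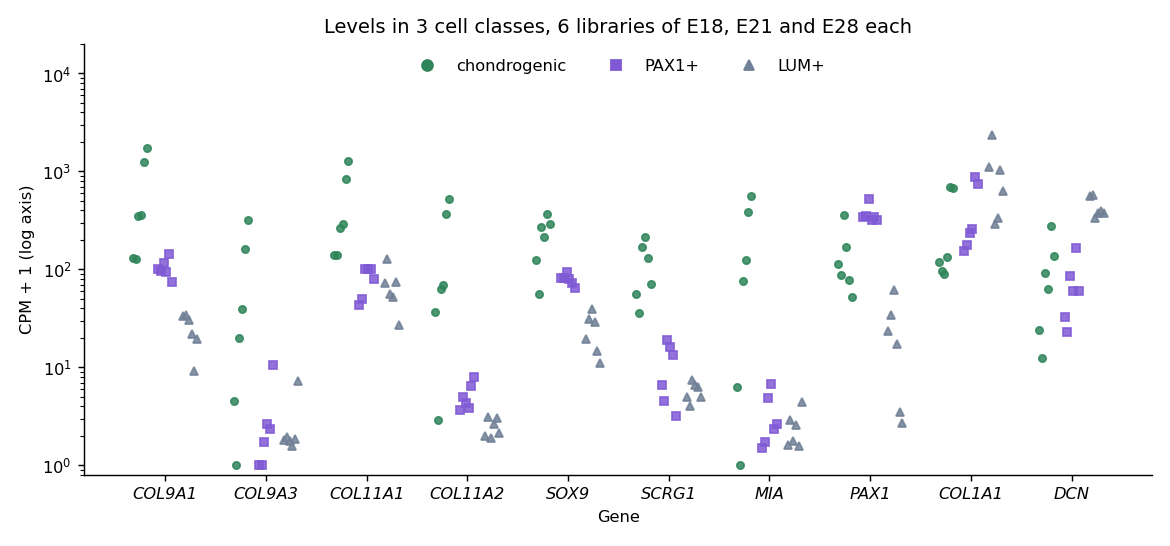
Level of 10 genes in chondrogenic, PAX1+ and LUM+ cells of the 6 libraries of E18, E21 and E28, in CPM plus 1 on a log axis, 1 point per library. SCRG1 lies at 34.6 to 214 CPM in chondrogenic cells and at 2.15 to 18.2 CPM in PAX1+ cells, though the E18 chondrogenic cells that held MATN4 have 4.12 and 6.01 CPM, and PAX1 at 51.3 to 357 CPM in chondrogenic and 1.69 to 60.2 CPM in LUM+ cells.

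Within the members the matrix genes differed with the level of COL2A1. Members were divided at 10 and 20 UMIs of COL2A1, which gave 571, 290 and 132 cells in E28-ZZ and 338, 209 and 164 in E28-DZ. These are cells of the same libraries, deeper barcodes have more UMIs of every gene, and the levels, in CPM without TMM scaling, are a description without a test.

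From the lowest to the highest bin COL9A1 went through 638, 1282 and 3109 CPM in E28-ZZ, and through 835, 1773 and 3954 CPM in E28-DZ. MATN1 went through 3.02, 15.3 and 179 CPM, and 7.08, 77.4 and 618 CPM. HAPLN1 went through 41.6, 161 and 622 CPM, and 57.4, 220.0 and 1059.6 CPM. All 3 matrix genes were therefore highest in the cells richest in COL2A1, in both E28 libraries.

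PAX1 ran the other way, through 86.9, 65.9 and 38.3 CPM in E28-ZZ and 86.5, 39.3 and 14.8 CPM in E28-DZ. The gap of MATN1 between the E28 libraries was present in each bin. At E21 the highest bin held 13 and 16 cells.

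Members with and without ACAN were compared in the same way. MATN1 stood at 70.7 CPM in the ACAN-positive and 3.50 CPM in the ACAN-zero members of E28-ZZ, and at 339 and 15.9 CPM in E28-DZ. COL9A1 stood at 1993 and 602 CPM, and at 2793 and 957 CPM. Both genes were higher in members that held ACAN.

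**Figure D5:**
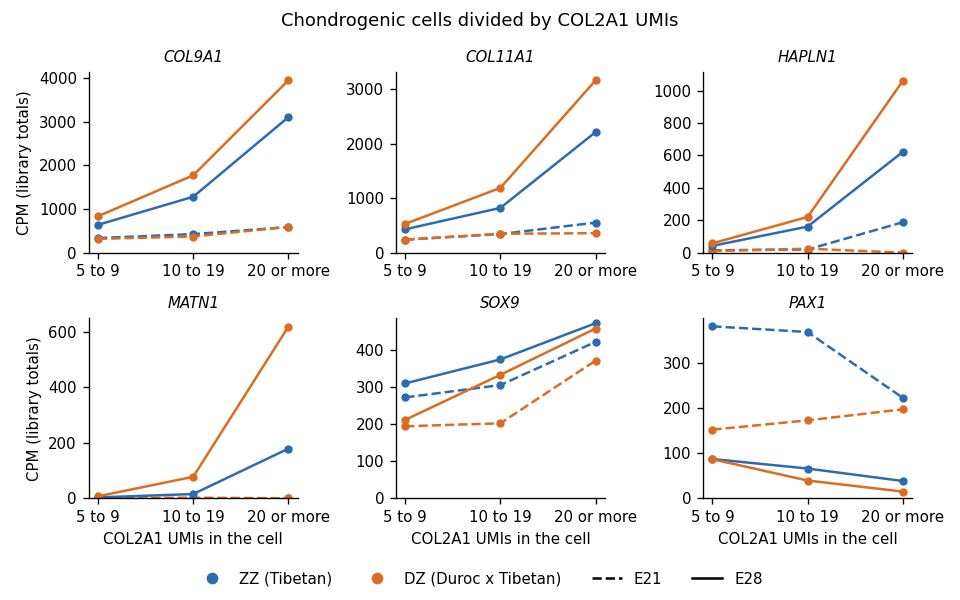
Level of 6 genes in chondrogenic cells with 5 to 9, 10 to 19 and 20 or more UMIs of COL2A1, in CPM without TMM scaling, for the 2 libraries of E21 (dashed) and the 2 of E28 (solid). COL9A1 reaches 3109 and 3954 CPM in the highest bin of E28-ZZ and E28-DZ, where PAX1 is at 38.3 and 14.8 CPM.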

How the data were processed

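Chondrogenic cells were studied in 8 libraries of droplet-based 3′ single-cell RNA sequencing. The authors aligned reads to Sscrofa11.1 (Ensembl annotation) and deposited raw UMI counts per gene and barcode from Cell Ranger 3.1.0 (E16) and 3.0.2 (the rest, per the file headers). Of 6455 features without a symbol, 686 were named from a gene table.

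Barcodes with under 200 genes, over 30000 UMIs or over 10% of UMIs on 13 mitochondrial genes were removed. The members and the 28 gene lists were chosen with earlier results of these data known. Doublets were scored with Scrublet (scanpy 1.11.5, expected rate 0.8% per 1000 barcodes) and kept, and their removal was an alternative. In E16-ZZ 39.2% of barcodes failed the mitochondrial limit.

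Counts were summed over the members of each library with at least 20 members, and tested with edgeR 4.0.16 (quasi-likelihood, TMM, filterByExpr, stage and breed as terms, Benjamini-Hochberg over all genes tested) in R 4.3.3. The 6 libraries left 2 residual degrees of freedom. With 1 library, a pool of embryos, per stage and breed, these come from differences in stage change between the breeds. The p-values of the stage and breed comparisons measure that spread, and none between pools of the same stage and breed. Totals in members ran from 490243 to 5462697 UMIs. A test on simulated data for E28 against E21 (10841 genes) drew counts once, with the same spread for every gene and no breed effect. In it 47 of 100 genes changed by 1 on the log2 scale and 90 of 100 changed by 2 were recovered, with 8 false calls. Spread that differs between genes was not simulated, so these figures do not give the recovery or false calls in the real data. Classes were compared within library with the same tool. Shares were compared with an exact permutation test in scipy 1.17.1, and binomial intervals and floors of 3 UMIs cover counting error only. DESeq2 1.42.0, other gates, scalings and filters, and leaving out each library were the alternatives.

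Genes were named from the lists and, per comparison and direction, as the 8 largest called changes with a symbol, at least 50 CPM and the same direction in every pair of libraries. A few genes that the rule named are not reported here, though the counts of their lists hold them. Promoters came from RefSeq gene starts and the Sscrofa11.1 sequence.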

Additional observations from a re-analysis of the deposited data

Results flagged for a closer look

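The share of chondrogenic cells moved in opposite directions between E21 and E28 in the 2 breeds. It rose by 3.84 percentage points in ZZ (5.30% to 9.14%) and changed by −1.98 points in DZ (7.82% to 5.84%). With 1 library per stage and breed the difference was not tested.

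Among the barcodes removed by the quality limits, which no comparison used, 53 met the marker part of the chondrogenic rule.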

How the results depend on the processing

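The late minus early difference in share kept its direction in every alternative run. It ran from 2.52 points with at least 10 UMIs of COL2A1 to 7.48 points with a mitochondrial limit of 5%. Each had p = 0.0286, the smallest the exact permutation test allows there, and each counts cells by genes of the rule. The difference was 6.45 points in the libraries of Cell Ranger 3.0.2 and 6.20 points in the somite libraries. For these p = 0.0667 is the smallest the exact permutation test allows. Leaving out 1 library gave 5.96 to 7.24 points. Counts of genes called were less stable, and the cause was not tested.

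For E28 against E21 (642 genes) the count was 1074 with MATN4 and ACAN both required, 1149 without a filter on low counts and 286 with DESeq2, and 303 (without E21-DZ) to 1009 (without E28-ZZ) with 1 library left out (1002 without E18-DZ). For E21 against E18 (317) it was 188 with the 5% mitochondrial limit, 177 with 10 UMIs of COL2A1 per 10000 and 791 without the filter, and 194 (without E18-DZ) to 846 (without E28-ZZ, 841 without E28-DZ). With 10 UMIs of COL2A1 per 10000, 142 of the 317 genes kept their call. The members had medians of 8558.5 and 5714 UMIs at E18 and 4592 and 5392 UMIs at E21. How depth bears on these calls was not tested. With at least 10 UMIs of COL2A1, or both partners, E18 had too few cells for E21 against E18.

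For DZ against ZZ (5) it was 105 with both partners, 12 with 10 UMIs of COL2A1, 8 with DESeq2, 28 without members lacking MATN4, 23 with the 5% limit, 158 without the filter, 33 with 10 UMIs per 10000, 19 without the highest Scrublet scores, 20 with cells of at least 3000 UMIs, and 44 (without E21-DZ) to 103 (without E28-ZZ). Every library left out moved it by more than 1.5 times (95 without E18-DZ, 68 without E18-ZZ, 56 without E21-ZZ, 100 without E28-DZ). At least 4 of the 5 genes stayed called in each of these.

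Against PAX1+ cells (369) it was 981 with both partners, 882 with 10 UMIs of COL2A1, 739 with E21 and E28 only, 804 without the filter, 598 with 10 UMIs per 10000, and 188 (without E21-ZZ) to 474 (without E18-DZ), with 213, 217 and 203 without E21-DZ, E28-DZ and E28-ZZ. Against LUM+ cells (928) it was 410 (without E28-ZZ) to 1051 (without E18-DZ), with 423 and 431 without E21-DZ and E21-ZZ.

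Over the named genes that were called, 5843 alternative values kept the call, 835 lost it and none reversed. Of those lost, 468 came from leaving out a library, which leaves its stage with 1 library assumed to vary like the others. The alternatives without MATN4-zero members, with E21 and E28 only and within tissue or Cell Ranger version were chosen after seeing the data. The fit had breed as a term, and without it 540 and 275 genes were called between the stages. E16 and E18 gave 25 and 118 members, and how this bears on the number of calls was not tested.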
